A study of Arabidopsis thaliana with 18 samples.

Results

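The plastid genome of Arabidopsis thaliana encodes core subunits of the photosynthetic machinery, and their transcripts were followed here on ATH1 arrays of the accession Van-0. The genes were chosen by genome and symbol alone: every gene of the plastid genome whose symbol begins with psa, psb, pet or atp, together with rbcL, ycf3 and ycf4. All 35 such genes of the gene table had 1 probe set that names 1 gene, among 22810 probe sets in all. They are 15 genes of photosystem II, 5 of photosystem I, 2 for the assembly of photosystem I, 6 of the cytochrome b6f complex, 6 of the ATP synthase and 1 of Rubisco. All 35 passed the filter on low signals and belong to the 15922 probe sets tested.

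The samples come from a project on polymorphism of expression levels. Total RNA of 18 Van-0 samples was hybridised, of which 9 had received 0.02% silwet. The other 9 had received 0.02% silwet that also held 0.3 mM SA. Silwet is an organosilicone surfactant and SA is salicylic acid, a hormone of plant defence, so all 18 samples received the surfactant. The labels used here give no mutation or transgene, no age and no tissue, and do not say how long after treatment the plants were taken or whether the samples came from separate plants. The arrays of each treatment are numbered 1 to 9 by the first number in their titles. Each title also carries a Rep number from 1 to 3. Each run of 3 consecutive first title numbers holds every Rep number once and is called a title set. In each treatment, arrays 1 to 3 form title set 1, arrays 4 to 6 title set 2 and arrays 7 to 9 title set 3. Rep number 1 stands on arrays 1, 4 and 7 of each treatment, Rep number 2 on arrays 2, 5 and 8, and Rep number 3 on arrays 3, 6 and 9. What title sets and Rep numbers mark is not stated in the labels.

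In the thylakoid membrane, photosystem II takes electrons from water, the cytochrome b6f complex passes them on from plastoquinone to plastocyanin, and photosystem I lifts them to ferredoxin. The proton gradient built on the way drives the ATP synthase, and the ATP and NADPH feed carbon fixation by Rubisco. The reaction centre proteins are encoded in the plastid and many other subunits in the nucleus, so the complexes are built from the products of both genomes. Plastid genes are mostly transcribed in clusters by a bacterial type of RNA polymerase with nuclear sigma factors, and by a phage type polymerase. The transcripts are then cut, edited and protected by nuclear RNA-binding proteins, so that RNA stability sets much of their level. SA and attack by pathogens are known to lower photosynthesis in leaves.

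Values are MAS5 signals on a linear scale, and differences are on the scale of log2(signal + 2). Signals of different probe sets are not compared in level, because each probe set binds with its own strength. The median signal of an array lay between 23.3 and 36.6. Of 10 nuclear photosynthesis genes, 9 had every signal above the highest of these medians, and ATPC2, which ran from 5.89 to 48.9 with a median of 17.5, did not. RCA, which encodes Rubisco activase, ran from 1429 to 4059 with a median of 3156 over the 18 arrays. LHCB4.1, which encodes a light-harvesting protein of photosystem II, ran from 2914 to 4977 with a median of 3910.0. The root hair expansin gene EXPA18 stayed at or below 25.5. The level of PYK10, the other root gene tested, is not given here, so no tissue is read from EXPA18. Of the marker lists, 2 of 3 root and 2 of 3 guard cell genes with a probe set were tested, and no flower, pollen or seed marker had one. Fewer cells of a type and less RNA per cell cannot be told apart in such samples.

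Both silwet 4 and silwet 7 stood apart in the signal at the 5′ ends of control transcripts, a measure of RNA integrity and labelling. The ratio of the 5′ to the 3′ probe set of GAPDH was 0.465 on silwet 4 and 0.225 on silwet 7, against 0.767 to 1.29 on the other 16 arrays. The same ratio of actin was 0.253 and 0.141, against 0.489 to 0.785. Results are therefore given with and without these arrays. Both belong to Rep number 1, where the GAPDH ratio ran from 0.225 to 1.21, against 0.940 to 1.20 on Rep number 2 and 0.904 to 1.29 on Rep number 3.

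The 35 genes did not move as a block. The median deviation of a gene from its own mean ran from -0.44 on silwet 6 to 0.48 on silwet 9. Silwet 9 had the highest signal of all arrays for 7 genes and silwet 1 for another 7, while SA 3 had the lowest for 8 and silwet 6 for 7. The genes differed widely in spread over the 18 arrays. The SD on the log2 scale was largest for psbA (1.84) and psaA (1.60), followed by psbB (0.86), petG (0.84) and rbcL (0.83). It was smallest for petB (0.18) and atpB (0.20).

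**Figure D1:**
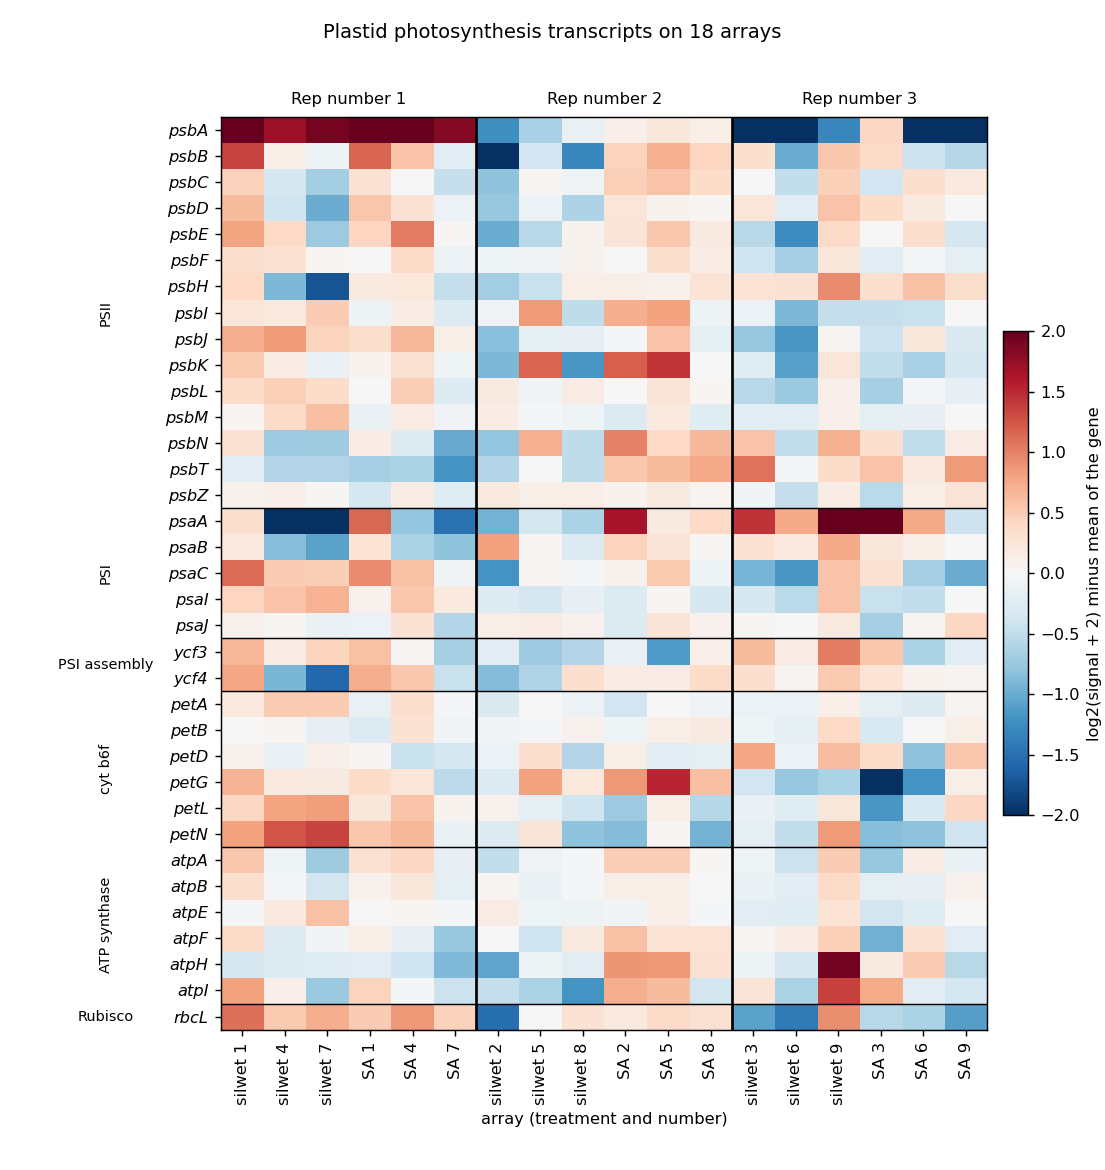
Each row is 1 plastid gene, grouped by complex, and each column 1 array, ordered by Rep number and treatment. Colour gives log2(signal + 2) minus the mean of the gene, with the scale ending at -2 and 2. The psbA row is red on all 6 arrays of Rep number 1, and psaA is at the blue end of the scale on silwet 4 and silwet 7.

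The variance over the arrays was divided between treatment, title set, Rep number and the remainder. For the median member, treatment held 4.29%, title set 6.23% and Rep number 26.8%. Over all probe sets tested the medians were 2.04%, 20.6% and 14.4%. Unrelated values would give 5.88%, 11.8% and 11.8% on average, from the degrees of freedom. These are means and not medians, so the medians are not read as above or below them. The median plastid photosynthesis gene had a larger share with Rep number and a smaller share with title set than the median probe set, and so had the medians of other plastid genes. Rep number held 29.99% for the 24 plastid genes of transcription, translation and other functions and 33.0% for the 10 plastid NDH genes, and title set held 14.9% and 1.39%. The complexes differed in this. The median share with Rep number was 44.4% for the cytochrome b6f genes, 41.3% for the photosystem I genes and 26.8% for the photosystem II genes, but 7.44% for the ATP synthase genes. These shares are descriptions, with no test of the difference between lists. They were not computed without silwet 4 and silwet 7, both of Rep number 1. Without these arrays, fewer genes had an unadjusted p under 0.05 between Rep numbers in limma. The count fell from 4 to 2 of 5 for photosystem I and from 4 to 2 of 6 for cytochrome b6f. For photosystem II it stayed at 6 of 15.

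**Figure D2:**
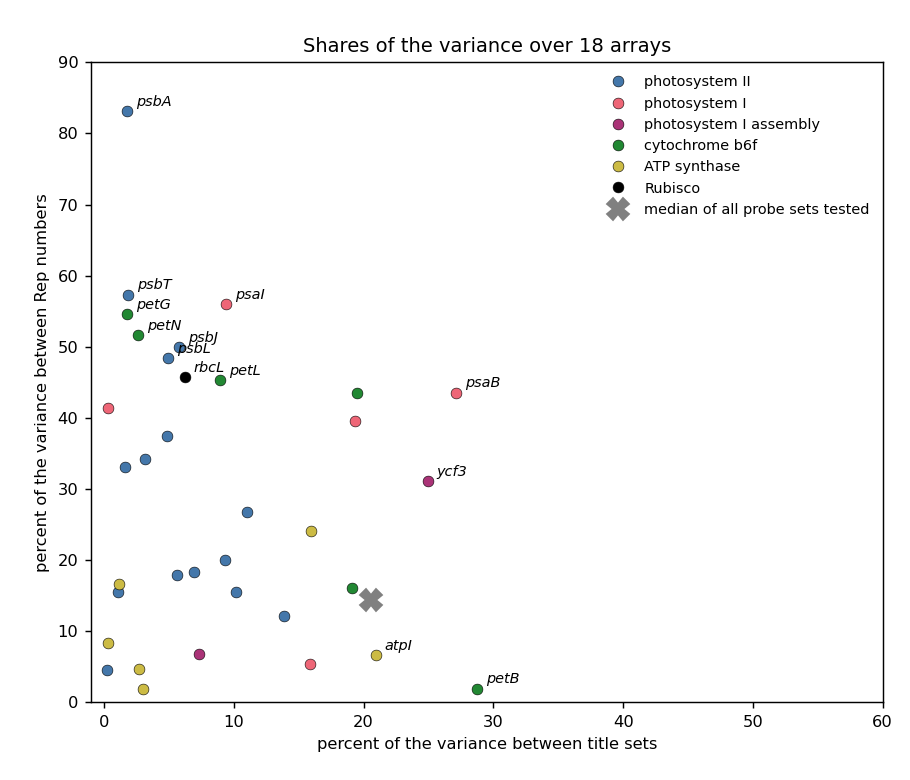
Each point is 1 of the 35 genes, placed by the percent of its variance over 18 arrays that lies between title sets (horizontal) and between Rep numbers (vertical), coloured by complex. The cross is the median of all 15922 probe sets tested, at 20.6% and 14.4%. psbA lies highest, at 83.1% between Rep numbers.

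The test between Rep numbers called 1 of the 35 genes, psbA, where 0.0251% of all probe sets were called (4 of 15922). psbA encodes D1, the reaction centre protein of photosystem II that is damaged by light and replaced most often. On the Rep number 1 arrays its signal was 2456, 1321 and 1533 with silwet and 1959, 2084 and 1445 with SA. On Rep number 2 it was 172, 258 and 366 with silwet and 432, 475 and 439 with SA. On Rep number 3 it was 78.5, 61 and 163 with silwet and 539.7, 63.5 and 66.7 with SA. All 6 arrays of Rep number 1 lay above all 12 others, in both treatments and in every title set. Among all probe sets, 0.107% showed such a separation (17 of 15922).

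The psbA level on Rep number 1 was 3.17 log2 units, or 9.0-fold, above the mean of the other Rep numbers. Rep number 2 lay 2.38 (SE 0.41) and Rep number 3 lay 3.96 (SE 0.41) log2 units below Rep number 1. The moderated F-test of limma over the 3 Rep numbers gave an adjusted p of 0.00123, the smallest p of all 15922 probe sets, and the range over the alternatives was 1.89e-06 to 0.232. Without silwet 4 and silwet 7 the adjusted p was 0.0476, and psbA was then the only probe set called (0.00628%). Without title set 2 the adjusted p was 0.232 and without title set 3 it was 0.216, with differences of 3.02 and 3.33 log2 units. The other 3 probe sets called over all arrays are those of AT3G12150 and AT1G47970 and 1 that is unnamed here. The Rep number difference of psbA was taken up after its values were seen.

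Other quantities moved with Rep number as well, and their part in the psbA difference was not tested. The median signal of the arrays was 23.3 to 30.7 on Rep number 1, 24.1 to 35.2 on Rep number 2 and 29.2 to 36.6 on Rep number 3. The psbA difference was past the threshold after quantile normalization and after centring each array on its median. SAG29, the single tested marker of the senescence list, ran from 34.1 to 179 with a median of 121 on Rep number 1, from 2.86 to 90.7 with a median of 20 on Rep number 2 and from 11.3 to 94.1 with a median of 47.2 on Rep number 3. Its adjusted p over Rep numbers in limma was 0.194.

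Before adjustment, 16 of the 35 genes, psbA among them (45.7%), had an unadjusted p under 0.05 between Rep numbers, against 15.9% of all probe sets. Of these, 12 were higher on Rep number 1 (5.51% of all probe sets) and 4 were lower (10.4%). They were 6 of 15 genes of photosystem II, 4 of 5 of photosystem I, 1 of the 2 assembly genes, 4 of 6 of cytochrome b6f, 0 of 6 of the ATP synthase, and rbcL. Without silwet 4 and silwet 7 the count was 11 of 35, against 7.46%, with 9 higher and 2 lower. By complex these were 6 of 15 genes of photosystem II, 2 of 5 of photosystem I, 0 of the 2 assembly genes, 2 of 6 of cytochrome b6f and 0 of 6 of the ATP synthase, with rbcL. The split into higher and lower depends on the scaling and on brightness. Centring the arrays on their medians gave 15 higher and 2 lower members, with 1801 higher and 686 lower of all probe sets, against 877 and 1654 in the uncentred fit. Quantile normalization gave 11 and 5 members, with 1102 and 1069 of all probe sets. The median difference of Rep number 1 from the others was 0.18 for the members and -0.099 over all probe sets, 0.40 and 0.12 after median centring, and 0.028 and 0.025 after quantile normalization. Of the 35 members 29 have a mean log2 signal over 7, and among the 4905 probe sets this bright 10.1% were higher and 7.62% lower at an unadjusted p under 0.05.

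rbcL encodes the large subunit of Rubisco, the carbon-fixing enzyme. Its signal on Rep number 1 ran from 190.0 to 299 with a median of 213, on Rep number 2 from 47.1 to 181 with a median of 163, and on Rep number 3 from 50.4 to 264 with a median of 76.3. Every Rep number 1 array lay above every Rep number 2 array, and silwet 9 alone of Rep number 3 reached into the range of Rep number 1. The difference of Rep number 1 from the mean of the others was 1.05 log2 units, with an adjusted p in limma of 0.155, which is not past the threshold. psaC, which encodes the iron-sulfur subunit that passes electrons from photosystem I to ferredoxin, differed by 0.90 log2 units (adjusted p in limma 0.191). psbJ, a small subunit of photosystem II, differed by 0.79 (adjusted p in limma 0.124).

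petN encodes a very small subunit needed for a stable cytochrome b6f complex. Its signal ran from 111 to 314 with a median of 204 on Rep number 1, from 62.4 to 147 with a median of 84.8 on Rep number 2 and from 66.5 to 223 with a median of 89.4 on Rep number 3. The highest values were those of silwet 7 and silwet 4, and SA 7 and silwet 9 made the groups overlap. The adjusted p in limma over the 3 Rep numbers was 0.0756, and 0.529 without silwet 4 and silwet 7. psbT, a small subunit of the photosystem II dimer, went the other way. Its signal ran from 56 to 111 with a median of 83.7 on Rep number 1, from 85.7 to 219 with a median of 159.6 on Rep number 2 and from 127 to 275 with a median of 179 on Rep number 3. All Rep number 3 arrays lay above all Rep number 1 arrays. The adjusted p in limma over the 3 Rep numbers was 0.0915, and 0.469 without silwet 4 and silwet 7.

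In contrasts of single Rep numbers, added after the values were seen, Rep number 3 against Rep number 1 called 3 of the 35 genes. psbT was higher on Rep number 3 by 1.15 log2 units (adjusted p in limma 0.0379), where 1.1% of all probe sets were called in that direction. psbA and petN were lower, petN by 1.06 log2 units (adjusted p in limma 0.0497), where 0.484% of all probe sets were called. Rep number 2 against Rep number 1 called 0 of 35, with psbA at an adjusted p in limma of 0.103. In either direction 0% of all probe sets were called there. No contrast of single Rep numbers was fitted without silwet 4 and silwet 7, which had the 2 highest petN signals. psaA, psaB and psbH had differences of Rep number 1 from the mean of the others of -1.84, -0.72 and -0.57 log2 units, with adjusted p in limma of 0.169, 0.179 and 0.238. These are genes whose lowest signals stood on silwet 4 and silwet 7, as given further on.

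**Figure D3:**
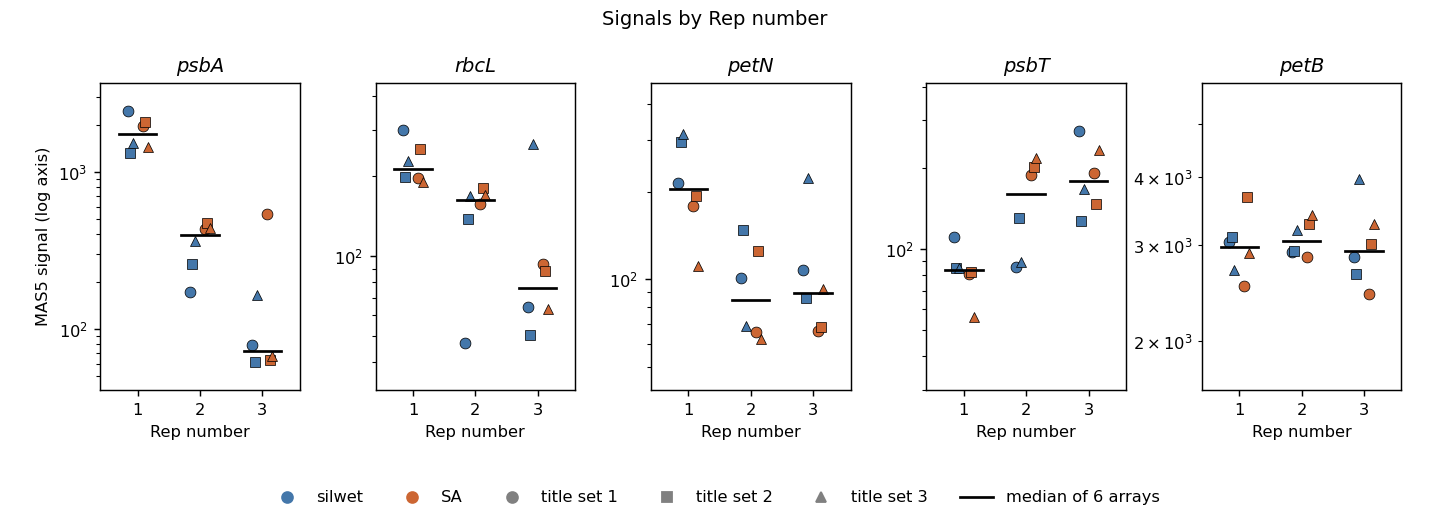
MAS5 signals (log axes, each with its own range) of 5 plastid genes on 18 arrays by Rep number, with colour for treatment, shape for title set and a bar at the median of 6 arrays. The psbA medians are 1746, 399 and 72.6, while petB, the gene with the smallest spread, stays between 2435 and 3971.

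Comparing the treatments asks whether these transcripts responded to the hormone beyond the surfactant. The fit of limma over 18 arrays called 0 of 35 genes, and 0% of all probe sets. At an unadjusted p under 0.05 it found 1 of 35, psbE, against 1.51% of all probe sets, and without silwet 4 and silwet 7 again psbE, against 0.973%. All 35 adjusted p-values rounded to 1. The difference was positive for 20 of 35 genes, against 46.6% of all probe sets, and the median difference was 0.064, against -0.016 over all. Without silwet 4 and silwet 7, 0 of 35 were called (0% of all probe sets), and the difference was positive for 21 of 35, against 41.8%, with a median of 0.045.

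Among the photosystem II genes, 12 of 15 had a higher mean log2 signal with SA, with a median difference of 0.23, and the count was 12 as well after quantile normalization and after median centring. It was 13 without silwet 4 and silwet 7 and 7 without Rep number 2. psbE encodes the alpha subunit of cytochrome b559, which photosystem II needs for its assembly. With silwet the psbE signal ran from 403 to 1647 with a median of 647, and with SA it ran from 754 to 1934 with a median of 1136. The ranges overlapped over most of their length, with the lowest values on silwet arrays. The mean was 878 ± 429 (SD, n = 9) with silwet and 1190.3 ± 338 (SD, n = 9) with SA, a difference of 0.54 (SE 0.25) on the log2 scale with an unadjusted p of 0.0407 in limma and an adjusted p of 1. Over the alternatives the difference lay between 0.27 and 0.79.

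The other large subunits of photosystem II are CP47 and CP43, the inner antenna proteins encoded by psbB and psbC, and D2, the partner of D1 encoded by psbD. Signals of psbB ran from 99 to 1051 with a median of 383 on the silwet arrays and from 278 to 925 with a median of 559 on the SA arrays. The lowest psbB signal was that of silwet 2, and both treatments covered the middle of the range. The difference was 0.56 (SE 0.36) on the log2 scale, and -0.048 without Rep number 2. The psbC signal ran from 358 to 879.8 with a median of 599 with silwet, and from 458 to 933 with a median of 772 with SA. With silwet the psbD signal ran from 228 to 709 with a median of 394, and with SA it ran from 418 to 669 with a median of 518. The SA ranges of both genes lay within or close to the silwet ranges, whose lower ends were deeper. The differences were 0.32 (SE 0.19) for psbC and 0.36 (SE 0.20) for psbD. For psbA the silwet arrays had a mean of 712 ± 854 (SD, n = 9) and the SA arrays 834 ± 784 (SD, n = 9), and the difference was 0.47 (SE 0.79), or 1.06 without silwet 4 and silwet 7. The remaining 10 genes grouped with photosystem II by symbol ranged from -0.16 for psbM to 0.38 for psbH, which came to 0.058 without those arrays.

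In photosystem I, 2 of 5 genes had a higher mean log2 signal with SA, and 3 of 5 after quantile normalization. psaA and psaB encode the large proteins that bind the reaction centre chlorophylls. Signals of psaA ran from 16 to 960.1 with a median of 148 on the silwet arrays and from 66.3 to 862 with a median of 253 on the SA arrays. The difference was 0.81 (SE 0.67) on the log2 scale, and -0.0096 without silwet 4 and silwet 7, whose signals were the lowest of all. The psaB signal ran from 775 to 2894 with a median of 1865 with silwet, and from 932 to 2225 with a median of 1769 with SA. The difference was -0.019 (SE 0.24), and -0.30 without silwet 4 and silwet 7. ycf3 and ycf4 encode proteins that help assemble photosystem I. With silwet the ycf4 signal ran from 297 to 1522 with a median of 921, and with SA it ran from 650.5 to 1467 with a median of 987. The ycf4 difference was 0.43 (SE 0.27), and 0.13 without those arrays, while the ycf3 difference was -0.34 (SE 0.26).

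Among the cytochrome b6f genes, 0 of 6 had a higher mean log2 signal with SA, and 1 of 6 without silwet 4 and silwet 7. It was 2 of 6 after quantile normalization and after median centring. There petB and petG, which lay close to no difference, changed sign. petA encodes cytochrome f, and petB the b-type cytochrome of the complex. Signals of petA ran from 1732 to 3007 with a median of 2093 on the silwet arrays and from 1609 to 2657 with a median of 2015 on the SA arrays. The petB signal ran from 2651 to 3971 with a median of 2922 with silwet, and from 2435 to 3680.3 with a median of 3009 with SA. The ranges of both treatments overlapped over most of their length. The differences on the log2 scale were -0.16 (SE 0.12) for petA and -0.00075 (SE 0.098) for petB. With silwet the petN signal ran from 68.9 to 314 with a median of 147, and with SA it ran from 62.4 to 194 with a median of 92.3. The silwet values reached higher, with the highest on silwet 7 and silwet 4. The difference was -0.62 (SE 0.31) for petN, and -0.33 without those arrays. petG encodes another small subunit. Signals of petG ran from 61.7 to 186 with a median of 119.9 on the silwet arrays and from 24.1 to 306 with a median of 124 on the SA arrays. Both the lowest and the highest petG signal belonged to SA arrays, and the difference was -0.0078 (SE 0.37). On the linear scale the means with silwet and SA were 113 ± 43.7 (SD, n = 9) and 131 ± 85.3 (SD, n = 9) for petG, and 3038 ± 392 (SD, n = 9) and 3041 ± 411 (SD, n = 9) for petB, so the direction of both depends on the scale.

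The ATP synthase genes had 4 of 6 differences above 0, also after quantile normalization and median centring, and 1 of 6 without Rep number 2. Without silwet 4 and silwet 7 the count was 3 of 6. atpA and atpB encode the alpha and beta subunits of the catalytic head, atpE its epsilon subunit, and atpH the subunit of the rotating ring in the membrane. The atpA signal ran from 923 to 2193 with a median of 1422 with silwet, and from 895 to 2118 with a median of 1679 with SA. With silwet the atpB signal ran from 2423 to 4069 with a median of 3019, and with SA it ran from 2745 to 3653 with a median of 3306. Neither gene separated the treatments, with differences of 0.19 (SE 0.19) and 0.034 (SE 0.10). Signals of atpE ran from 2373 to 4234 with a median of 2739 on the silwet arrays and from 2171 to 3064 with a median of 2751 on the SA arrays. The atpH signal ran from 220.5 to 1757 with a median of 389 with silwet, and from 249.8 to 855 with a median of 525 with SA. The highest value of atpE was on silwet 7 and that of atpH on silwet 9. Their differences were -0.12 (SE 0.11) and 0.16 (SE 0.31). For Rubisco, the rbcL signal ran from 47.1 to 299 with a median of 169 with silwet, and from 63.5 to 254 with a median of 170.5 with SA. The rbcL medians were nearly equal, with a difference of 0.096 (SE 0.37) on the log2 scale.

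**Figure D4:**
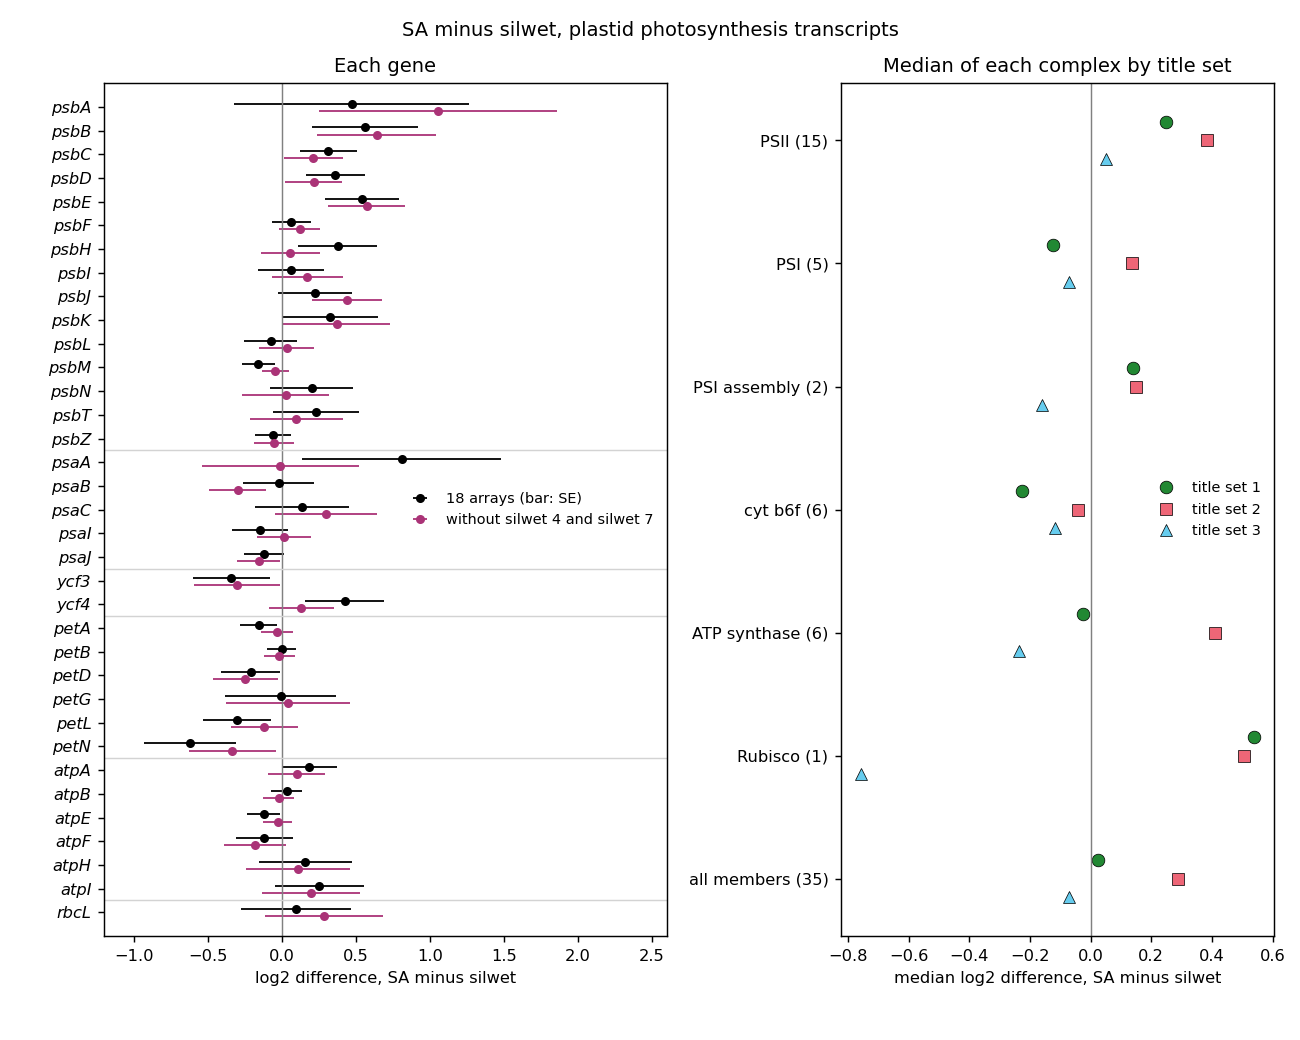
Left, the log2 difference SA minus silwet of each gene with its standard error, over 18 arrays (black) and without silwet 4 and silwet 7 (purple). Right, the median difference of each complex in each title set, with the number of genes in brackets. Removing both arrays moves psaA from 0.81 to -0.0096, and the medians of all 35 genes are 0.024, 0.29 and -0.07 in title sets 1, 2 and 3.

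The direction with SA varied between title sets. It was positive for 18 of 35 genes in title set 1, 31 in title set 2 and 12 in title set 3, against 49%, 48.7% and 54% of all probe sets. In title set 2 these were all 15 genes of photosystem II, all 5 of photosystem I and all 6 of the ATP synthase. In title set 3 they were 9, 1 and 0. No gene was called within a title set, where 0.829%, 0% and 0% of all probe sets were called. The interaction of title set and treatment called 0 of 35 in limma (0.17% of all probe sets), and 0 of 35 had an unadjusted p under 0.05, against 12.3%. Without silwet 4 and silwet 7 this interaction called 0 of 35 as well, where 2.68% of all probe sets were called. Between Rep numbers the difference was positive for 13, 28 and 10 of 35 genes, against 53.3%, 41.7% and 44%, with median differences of -0.17, 0.50 and -0.14. The interaction of Rep number and treatment called 0 of 35 (0% of all probe sets). At an unadjusted p under 0.05 it found 2 of 35, psbB and psbT, against 3.96%.

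The test between title sets, over both treatments, called 0 of 35 genes in limma, where 19.1% of all probe sets were called (3034 of 15922). At an unadjusted p under 0.05 the counts were 0 of 35 and 32.2%. The smallest adjusted p was 0.185, for psaB. Its signal ran from 1873 to 2894 with a median of 1984 in title set 1, from 899.5 to 1955 with a median of 1710.1 in title set 2 and from 775 to 2750.5 with a median of 1491 in title set 3. The lower ends in title sets 2 and 3 were those of silwet 4 and silwet 7. Without both arrays, 0 of 35 were called and 17.9% of all probe sets. Without silwet 9, 3 of 35 were called: atpI, which encodes the membrane channel subunit of the ATP synthase, with psaA and psaB. With array weights it was 1, psaB, and after quantile normalization 1, atpB. No share of all probe sets is given for these alternatives, so the counts are not read as results about these genes.

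Silwet 4 and silwet 7 had the lowest signals for some of the 35 genes and the highest for others. Together they had the 2 lowest signals of all 18 arrays for 4 of the 35 genes, psaA, psaB, psbH and ycf4. Of all probe sets, 8.59% had their 2 lowest signals on these arrays. The count of 4 is near that share and is not read as a result about the members. The psaA signal was 20.1 on silwet 4 and 16 on silwet 7, against 98.1 to 960.1 on the other 7 silwet arrays. Both values lay below the median signal of their own array (23.3 and 28), so no fold is given for psaA. The psaB signal was 899.5 on silwet 4 and 775 on silwet 7, against 1352 to 2894 on the other 7 silwet arrays, 2.38-fold lower by the means of log2 signals. psaA and psaB belong to 1 operon, and both were lowest on these arrays. The ycf4 signal was 468 on silwet 4 and 297 on silwet 7, against 485 to 1522 on the other 7 silwet arrays, 2.5-fold lower by the means of log2 signals. psbH, a phosphoprotein gene of photosystem II, was at 571 on silwet 4 and 319.5 on silwet 7, against 655 to 2050.3 on the other 7 silwet arrays, 2.72-fold lower by the means of log2 signals. The same arrays had the 2 highest signals of all for 5 of the 35 genes, psbM, psaI, petA, petL and petN, against 5.61% of all probe sets. The psbM signal was 4063 on silwet 4 and 4706 on silwet 7, against 2672 to 3446 on the other 7 silwet arrays, 1.44-fold higher by the means of log2 signals. The petN signal was 296 on silwet 4 and 314 on silwet 7, against 68.9 to 223 on the other 7 silwet arrays, 2.43-fold higher by the means of log2 signals. psbM, psaI, petL and petN encode small membrane subunits of photosystem II, photosystem I and the cytochrome b6f complex. The arrays were picked by control ratios and not by these genes, and no test was made between them and the rest.

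The SA array with the lowest GAPDH ratio, SA 7 at 0.767, lay next to these arrays for psaA and psaB, with signals of 66.3 and 932. The 3 arrays with the lowest GAPDH ratio were thus the 3 lowest for both genes. On the remaining 15 arrays psaA still ranged from 98.1 to 960.1. For petN, SA 7 at 111 lay well below silwet 4 and silwet 7. The 4 arrays with the lowest GAPDH ratios, silwet 7, silwet 4, SA 7 and SA 4, all belong to Rep number 1, and their psbA signals ran from 1321 to 2084, above the 539.7 that was highest on the other Rep numbers. The remaining Rep number 1 arrays, silwet 1 and SA 1, had ratios of 0.989 and 1.21 and psbA signals of 2456 and 1959. The part of RNA integrity in the psbA difference was not tested.

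**Figure D5:**
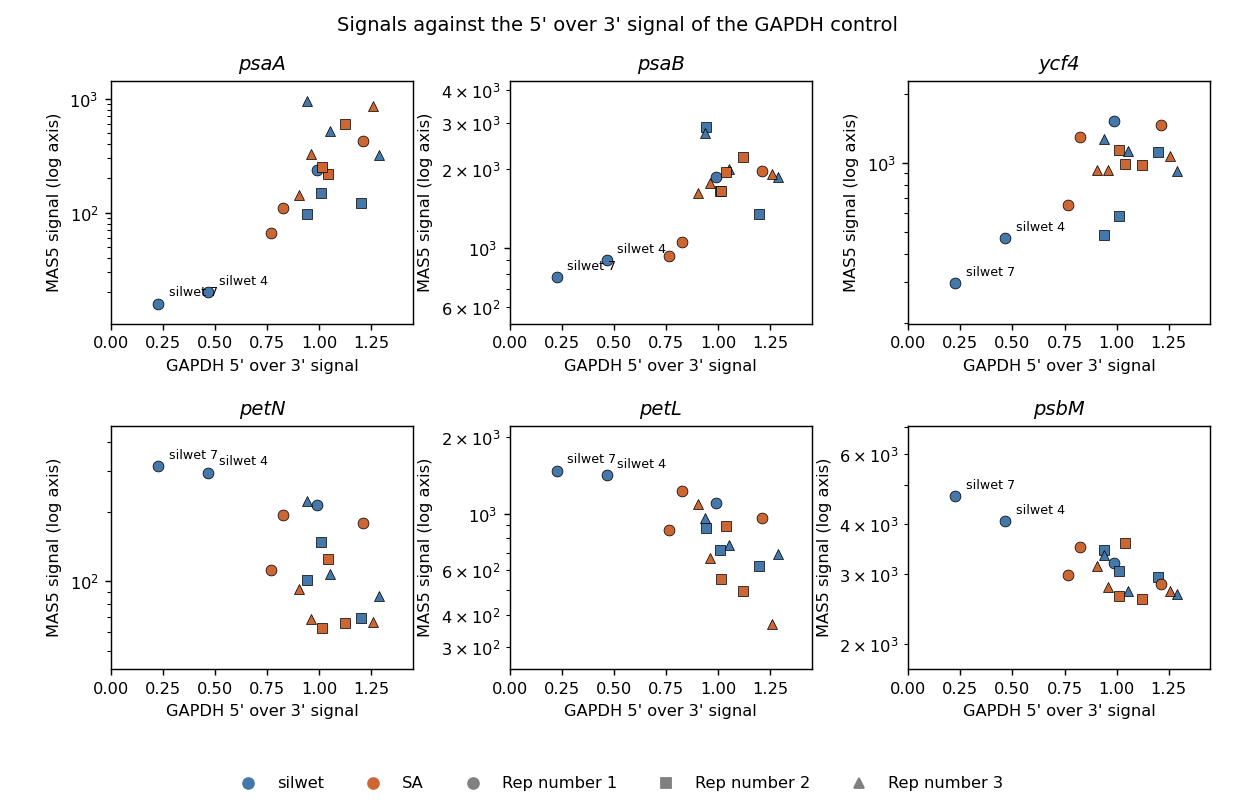
MAS5 signals (log axes, each with its own range) of 6 plastid genes against the 5′ over 3′ ratio of the GAPDH control on 18 arrays, with colour for treatment and shape for Rep number. Silwet 7 (0.225) and silwet 4 (0.465) lie at the left, lowest for psaA, psaB and ycf4 and highest for petN, petL and psbM.

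Genes of 1 operon are made as 1 precursor RNA before it is cut, and their signals were set beside each other across arrays. Likeness was measured as the SD over the 18 arrays of the difference of 2 genes' log2 signals, which is small for genes that move in parallel. Neighbours are genes of 1 operon with no other protein-coding gene between them in the gene table. The operons were listed from textbooks, and the list may be incomplete. It joins petL with petG alone, so pairs of these genes with psaJ count among the other pairs. For 16 pairs of neighbours in the operons as listed the median SD was 0.45, with a range of 0.18 to 1.22. For 16 pairs of 1 operon that are not neighbours it was 0.62, and for the other 563 pairs 0.70. This SD also depends on how much each gene varies, so it was divided by the value that unrelated variation of the same sizes would give, a step added after the values were seen. The median ratio was 0.74 for neighbours, 0.80 within an operon at a distance and 0.90 for the other pairs, and 14 of 16, 14 of 16 and 414 of 563 ratios were below 1. All pairs share the same 18 arrays, and no test was made.

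The closest neighbours were psbF and psbL, which encode the beta subunit of cytochrome b559 and a small subunit beside it, with an SD of 0.18 and a ratio of 0.39. psbK with psbI had a ratio of 0.48, psbD with psbC 0.53 and psbL with psbJ 0.54. In the ATP synthase operon the ratios were 0.60 for atpI with atpH, 0.61 for atpF with atpA and 0.75 for atpH with atpF. Neighbours did not always move in parallel. The ratio was 1.08 for psaI with ycf4 and 1.03 for petB with petD. It was 1.11 for ycf4 with petA, which have cemA between them. In the operon of psaI, ycf4 and petA, psaI and petA were highest on silwet 4 and silwet 7 while ycf4 was lowest there. psaI and petA, which are not neighbours, had a ratio of 0.49. The smallest ratio of all pairs was 0.31, for rbcL with psaC, genes of different operons, and psbH with ycf4 followed at 0.31. Both psbH and ycf4 were lowest on silwet 4 and silwet 7. No ratio was computed without these arrays, so their part in the likeness of such pairs was not tested.

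Over all 8775 named probe sets tested, the genes most like rbcL by this SD were psaC (0.34), ndhD (0.40), AT4G21620 (0.48), psbJ (0.48) and accD (0.50). psaC and ndhD are neighbours on the plastid genome, and 4 of these 5 are plastid genes. Those most like psbE were AT1G67620 (0.36), AT5G13780 (0.37), psbJ (0.38), rpl33 (0.39) and AT5G19630 (0.40). The gene most like psbA was rbcL, with an SD of 1.29, against an SD of 1.84 for psbA itself.

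Other gene lists were read beside the members. Of the 24 plastid genes for transcription, translation and other functions, 0 were called with SA, 2 had an unadjusted p under 0.05 and 7 had a higher mean log2 signal with SA, with a median of -0.10. The 2 genes were rpoA (-0.42, SE 0.18), which encodes a subunit of the plastid polymerase, and rps15 (-0.43, SE 0.19), a ribosomal protein gene. Between Rep numbers 12 of 24 had an unadjusted p under 0.05, with 4 higher and 8 lower on Rep number 1, against 15.9%, 5.51% and 10.4% of all probe sets, and none was called. Of the 10 plastid NDH genes, for an NADH dehydrogenase-like complex of the thylakoid, 5 were higher with SA and 5 had an unadjusted p under 0.05 between Rep numbers, 1 higher and 4 lower on Rep number 1. ndhF and ndhH had the smallest p with SA, with differences of -0.39 (SE 0.28) and 0.34 (SE 0.43). Neither list had a gene called between title sets.

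The nuclear side was covered only in part by probe sets that name 1 gene. Of 10 nuclear photosynthesis genes, 4 were higher with SA and 0 were called, and 1 had an unadjusted p under 0.05 between Rep numbers. Between title sets, where 19.1% of all probe sets were called, limma called 3 of these 10, 3 of the 11 RNA factors, 1 of the 4 assembly factors and 1 of the 8 mitochondrion-encoded genes given next. The 3 photosynthesis genes were PSBY (adjusted p 0.0215), ATPC1 (adjusted p 0.0257) and LHCB4.3 (adjusted p 0.00723). They encode a small photosystem II subunit, the gamma subunit of the ATP synthase and a light-harvesting protein. None of 37 plastid transcription factor and polymerase names had such a probe set. Of 41 names of plastid RNA factors 13 had one and 11 were tested. In that list 0 were called with SA and 3 between title sets: CRR28 and LPA2 (adjusted p in limma 0.0226 and 0.032) and ATAB2 (adjusted p in limma 0.0304), a factor for translation of photosystem mRNAs. LPA2 was counted in this list, although it is known as an assembly factor of photosystem II. CRR21 and LPA66, editing factors with the smallest p for SA, differed by -0.51 (SE 0.29) and -0.27 (SE 0.22). Of 4 assembly factors 1 was called between title sets, PSB27 (adjusted p in limma 0.0159), which helps assemble photosystem II. PAM68 and CCB3 had the smallest p for SA, with -0.35 (SE 0.17) and -0.29 (SE 0.20).

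Of 8 tested mitochondrion-encoded genes, 6 were higher with SA and 0 were called, with the smallest p for nad5 (0.33, SE 0.25) and cox1 (0.16, SE 0.16). Between title sets nad9 was called (adjusted p in limma 0.00392). Between Rep numbers 2 of 8 had an unadjusted p under 0.05, both lower on Rep number 1. Of the markers, the root gene PYK10 and the leaf gene GSTU20 were called between title sets (adjusted p in limma 0.036 and 0.00225), and no marker was called with SA or between Rep numbers. The differences with SA were 0.69 (SE 0.33) for SPCH, 0.22 (SE 0.17) for EXPA18 and 0.65 (SE 0.62) for SAG29. The other tested gene of the guard cell list differed by -0.026, and PYK10, the other of the root list, by -0.11. The 2 leaf genes differed by -0.23 and 0.24, so no list of 2 genes had 1 direction. SPCH stands in the guard cell list but is a gene of the early stomatal lineage, not of mature guard cells.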

How the data were processed

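Biotin-labelled total RNA of each sample went onto its own ATH1 array, per the labels. The values deposited are intensities of 22810 probe sets on 18 arrays. MAS5, named in the submitters' processing notes, summarises the probes of a set on each array alone, and the mean of each array without its lowest and highest 2% is 100. The sources used here do not give its version or how the RNA was primed. Most plastid mRNAs carry no stable poly(A) tail, so a signal need not scale with the amount of transcript. No sequences, coordinates or genome were used.

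The intensities were analysed as log2(signal + 2), which understates changes of low signals. The 64 control probe sets and the lowest 30% by mean were left out. Models were fitted by lmFit and by eBayes with an intensity trend (limma 3.58.1, R 4.3.3), two-sided, Benjamini-Hochberg adjusted over 15922 probe sets with a threshold of 0.05, and were tested on simulated data. Treatment entered alone, and title sets and Rep numbers entered with treatment. As no label says that samples are separate plants, p-values reflect only how these samples vary, which may be technical, and the number of arrays limits the precision.

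Probe sets were named through the platform annotation and the TAIR10.1 gene table: 13513 name 1 gene, 503 name several, and the other 8794 stay unnamed. The members and lists were chosen with earlier results of these data known. Values by group are given for genes past a test, for the smallest p with SA and the largest SD in each complex, and for 12 chosen subunits, which makes 17 genes. From other lists the genes past a test and the 2 with the smallest p for SA are named. Other genes given values, psbT among them, were picked with their values in view. Alternatives covered the pseudocount, filter, normalization, trend, weights, blocks and arrays left out. The deviations of silwet and SA arrays with the same Rep number correlated with a median of 0.057 (-0.50 to 0.72 over 27 pairs). The median was -0.033 over the 54 pairs of different Rep numbers. For the same title set it was 0.178 (-0.47 to 0.72 over 27 pairs), against -0.074 over the 54 pairs of different title sets. Neither was taken to pair the samples. The main test with SA thus leaves out title set, although 19.1% of all probe sets were called between title sets.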

Additional observations from a re-analysis of the deposited data

Results flagged for a closer look

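In the 34 tests for a sample far from the others (17 genes, 9 arrays in each treatment), 2 values stood out, and chance flags about 1 in 20 such groups, here 1.7. Both belong to silwet 9. The petB signal there was 3971, against 2651 to 3195 on the other 8 silwet arrays. The atpH signal there was 1757, against 220.5 to 430.4. Some of the 17 genes, atpH among them, were picked for the largest SD over these same arrays. The figure of 1.7 need not hold for such genes. Silwet 9 was also the highest array for 7 of the 35 genes.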

How the results depend on the processing

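No member was called with SA under any of 35 alternatives, and 9 of the 17 genes kept the sign of their difference in all. The number of genes higher with SA was 20, ranged from 17 to 24 when 1 array was left out, and was 10 without Rep number 2. Their median difference ran from -0.10 to 0.16. The replicate block for Rep number gave 0 called members, 0 called probe sets and 20 genes higher with SA, and it changed no call; a block for title set gave 1 called probe set. Members called between title sets numbered 1 after quantile normalization and 1 with array weights, and 0 to 3 when 1 array was left out, 3 of them without silwet 9. Members called between Rep numbers numbered 3 with array weights, and 1 to 2 when 1 array was left out, 2 without SA 5 or SA 7. Without Rep number 1, title set 2 or title set 3 the number was 0, in fits with fewer arrays. In 1 model with title set and the replicate block together, 1 member was called between title sets and 3 between Rep numbers. Array weights gave 4 calls for the interaction of title set with treatment and 3 for that of Rep number. With these weights 26% of all probe sets had an unadjusted p under 0.05 between Rep numbers, against 15.9% in the main fit. The calls between title sets, between Rep numbers and of interactions have no share of all probe sets beside them here. They are not read as results about the members. The cause of these shifts was not tested.

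The signals of psbN, petD, atpI and ycf3, and of psaA on silwet 4 and silwet 7, were dim, where MAS5 values are known to be noisy. The labels give no meaning for Rep numbers, which limits what the psbA difference can be tied to.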
